A study of Mus musculus with 64 samples.

Results

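Ribosome biogenesis and nucleolar genes were described in 3 tissues of mice labelled as Myc knockouts and of wild-type mice, at 2 ages. The set holds 50 genes, listed by symbol without use of the measurements, whose numeric gene ID is in the deposited table and whose mean level is above 1 CPM in at least 1 tissue. All 50 listed symbols passed, of 36332 distinct gene IDs in the table. By role, 2 members are abundant nucleolar proteins, 7 belong to RNA polymerase I or its initiation factors, 19 act on the small ribosomal subunit and 22 on the large subunit.

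The study sequenced messenger RNA of skeletal muscle, liver and omental adipose tissue from mice aged 5 or 20 months. Knockout mice (KO, labelled MycKO) came from a cross of the B6.129 line with the allele Gt(ROSA)26Sortm1(cre/ERT2)Tyj, which expresses a tamoxifen-activated Cre recombinase from the Rosa26 locus, to B6.129-B6.129S6-Myctm2Fwa/Mmjax, which carries a Myc gene flanked by recombination sites. Wild-type mice (WT) are labelled C57/B6, so the strain background differs between the genotypes, and a background difference and the loss of Myc cannot be told apart in these groups. Both genotypes are labelled as treated with tamoxifen (75 mg/kg in corn oil, 5 intraperitoneal doses on successive days) from weaning, once they weighed 15 g. The 5-month groups had 6 libraries each, apart from 4 in KO muscle, and every 20-month group had 5. The sample codes hold mouse numbers, but the labels do not say how litters or cages were spread, so p-values measure the spread between these samples.

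Ribosomes are assembled in the nucleolus, where RNA polymerase I copies the ribosomal RNA genes into a long precursor. Assembly factors fold, cut and modify this precursor while ribosomal proteins join it, along separate routes for the small and the large subunit. Myc is known as an activator of many of these genes, through the E-box motif CACGTG, and ribosome production is known to follow the growth state of a tissue.

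The E-box was looked for in the members' promoters, taken from 250 bases before to 50 bases after the RefSeq start site on GRCm38.p6. Promoters were matched for 44 of 50 members, all but Npm1, Rrs1, Rrp12, Bop1, Gnl2 and Gnl3l. The letters CACGTG, which read the same on both strands, occurred in 10 of these 44 promoters (22.7%) and in 8.09% of all 27025 promoters in the table. The related letters CACGCG, or CGCGTG on the other strand, occurred in 15 of 44 (34.1%) against 10.5% of all promoters. All promoters were counted whether or not their gene is expressed in these tissues, while every member is. Shares among expressed genes only were not counted. A match describes these letters and is no evidence that a factor binds there. The sites of 7 of these 10 members are shown with up to 12 bases on each side, on the gene's own strand, with the E-box in capitals.
Nop2, chr6:125131811-125131840, + strand, 60 bases before the start: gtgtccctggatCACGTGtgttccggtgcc
Utp18, chr11:93885769-93885798, - strand, 20 bases before the start: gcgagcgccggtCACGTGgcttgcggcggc
Rrn3, chr16:13780472-13780501, + strand, 215 bases before the start: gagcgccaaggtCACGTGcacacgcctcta
Rrn3, chr16:13780639-13780668, + strand, 48 bases before the start: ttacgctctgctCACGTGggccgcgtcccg
Pes1, chr11:3963965-3963994, + strand, 3 bases after the start: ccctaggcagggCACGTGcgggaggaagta
Tsr1, chr11:74898092-74898121, + strand, 25 bases after the start: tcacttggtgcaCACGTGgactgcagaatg
Utp20, chr10:88826765-88826789, - strand, 38 bases after the start: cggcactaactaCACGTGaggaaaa
Mdn1, chr4:32657145-32657168, + strand, 39 bases after the start: gaattccttcacCACGTGtgtgtc

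The other 3 members with the motif were Ltv1, Pno1 and Wdr43, whose sites are not shown. None of these 3 was called in a comparison of age or genotype, and neither was Tsr1, whose site is shown. Nop2, Utp18, Rrn3 and Pes1 are also among the 16 members that fell with age in WT liver, of which 13 had a matched promoter. CACGTG was in 4 of those 13 (30.8%) and CACGCG in 5 (38.5%). Utp20 and Mdn1, which rose with age in adipose tissue, carry the same letters just after their starts. The 250 bases upstream of Nop2 and Rrn3, the members with the motif before the start on the + strand, are printed whole to show where the E-boxes lie.
Nop2, chr6:125131633-125131882, + strand: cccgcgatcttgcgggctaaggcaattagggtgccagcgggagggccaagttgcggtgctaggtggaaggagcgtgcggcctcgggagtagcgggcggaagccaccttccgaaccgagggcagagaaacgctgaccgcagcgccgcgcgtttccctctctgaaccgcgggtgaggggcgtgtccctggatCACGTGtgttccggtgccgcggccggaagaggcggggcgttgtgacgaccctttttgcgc
Rrn3, chr16:13780449-13780698, + strand: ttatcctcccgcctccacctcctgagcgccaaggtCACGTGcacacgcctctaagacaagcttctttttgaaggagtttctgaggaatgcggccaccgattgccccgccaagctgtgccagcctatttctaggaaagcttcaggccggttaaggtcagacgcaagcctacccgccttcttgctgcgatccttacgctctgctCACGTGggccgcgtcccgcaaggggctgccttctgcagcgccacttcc

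Levels are given as the deposited value called CPM, which scales the reads of each library and takes no account of gene length, so each gene is compared with itself only. Libraries held 15.4 to 28.5 M reads on genes (M stands for mega), with a median of 19.6 M, and a member had at least 26 reads in every library. Group means of the members ran from 3.17 CPM for Dimt1 in liver of old WT mice to 277 CPM for Ncl in liver of young WT mice. At 5 months 12 libraries, 2 in each group, held Xist, the transcript of the inactive X chromosome in female cells, and none of the 20-month libraries did. At 5 months 4 adipose libraries (3 KO, 1 WT) also held transcripts of the epididymis, summed over 8 genes to 925 to 6339 CPM, while the other adipose libraries had at most 1.0. The young WT muscle library W5S5299 had 128 CPM of the same genes. The comparisons of age and of young genotypes are also given without the Xist libraries and, in adipose tissue, without the epididymis libraries. Those of tissues are given without the libraries with Xist only, and W5S5299 was left out only when each library was left out in turn. The marker lists of adipocytes, hepatocytes and skeletal muscle were highest in the tissue they name, but hepatocyte transcripts were also found elsewhere. Summed over 7 genes (lowest, median, highest), they had 480, 3102 and 4890 CPM in young WT and 1244, 2398 and 3838 CPM in young KO adipose tissue. In old adipose tissue they had 155, 369 and 550 CPM (WT) and 109, 518 and 1412 CPM (KO). The highest old WT muscle library had 2891 CPM, beside a group median of 4.41 CPM.

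Myc, the targeted gene, was lower in KO liver at 5 months, at 1.16, 2.65 and 4.04 CPM (lowest, median, highest of 6) against 5.46, 21.2 and 33.7 CPM in WT. The difference was -2.38 ± 0.30 on the log2(CPM + 1) scale (SE, limma adjusted p = 0.00093). In adipose tissue Myc had 2.87, 5.03 and 10.5 CPM in KO and 11.2, 18.7 and 22.8 CPM in WT (-1.52 ± 0.25, adjusted p = 0.017). Neither of these pairs of groups overlapped. In muscle the groups overlapped, with 5.00 to 17.1 CPM in KO and 6.15 to 81.3 CPM in WT (-1.13 ± 0.52, adjusted p = 1.0). Myc also fell with age in WT liver, to 5.36 to 7.61 CPM (-1.40 ± 0.32, adjusted p = 0.0108). At 20 months KO liver held 1.12 to 2.92 CPM, below every WT library, and the KO difference was not called (-1.16 ± 0.33, adjusted p = 0.547). Old adipose tissue had 5.14 to 9.72 CPM in KO and 8.10 to 16.3 CPM in WT. Old muscle had 1.75 to 10.2 CPM in KO and 4.97 to 13.1 CPM in WT. The genotypes overlapped in both of these tissues. In WT muscle the mean was 29.1 CPM at 5 and 7.91 CPM at 20 months.

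The first question was whether these genes were lower in young KO than in young WT mice. No member was called at an adjusted p under 0.05 by limma in any tissue, in either direction. Most members were nonetheless a little lower in KO: 41 of 50 in adipose tissue, 45 in the liver and 46 in muscle had a log2 fold change below 0, beside 56.4%, 47.6% and 47.1% of all genes tested. The members' median log2 fold change was -0.11 (adipose tissue), -0.20 (liver) and -0.16 (muscle), beside -0.04, 0.01 and 0.01 over all genes. Few genes of any kind were called, with 0.105% for adipose tissue, 0.0696% for liver and 0.0% for muscle. At an unadjusted p under 0.05, 6 members were lower in adipose tissue (7.2% of all genes), 13 in liver (2.97%) and 8 in muscle (1.27%). None was higher at that threshold (4.64%, 3.97% and 2.83% of all genes in the same order), and edgeR called none. Rescaled to 1 M reads per library, 30, 39 and 46 members were below 0, and the median of all genes was 0.04, 0.06 and 0.01. Relative to the median of all genes, the members' median was then -0.07 (adipose tissue), -0.20 (liver) and -0.17 (muscle). On the deposited scale it was -0.07, -0.21 and -0.17.

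**Figure D1:**
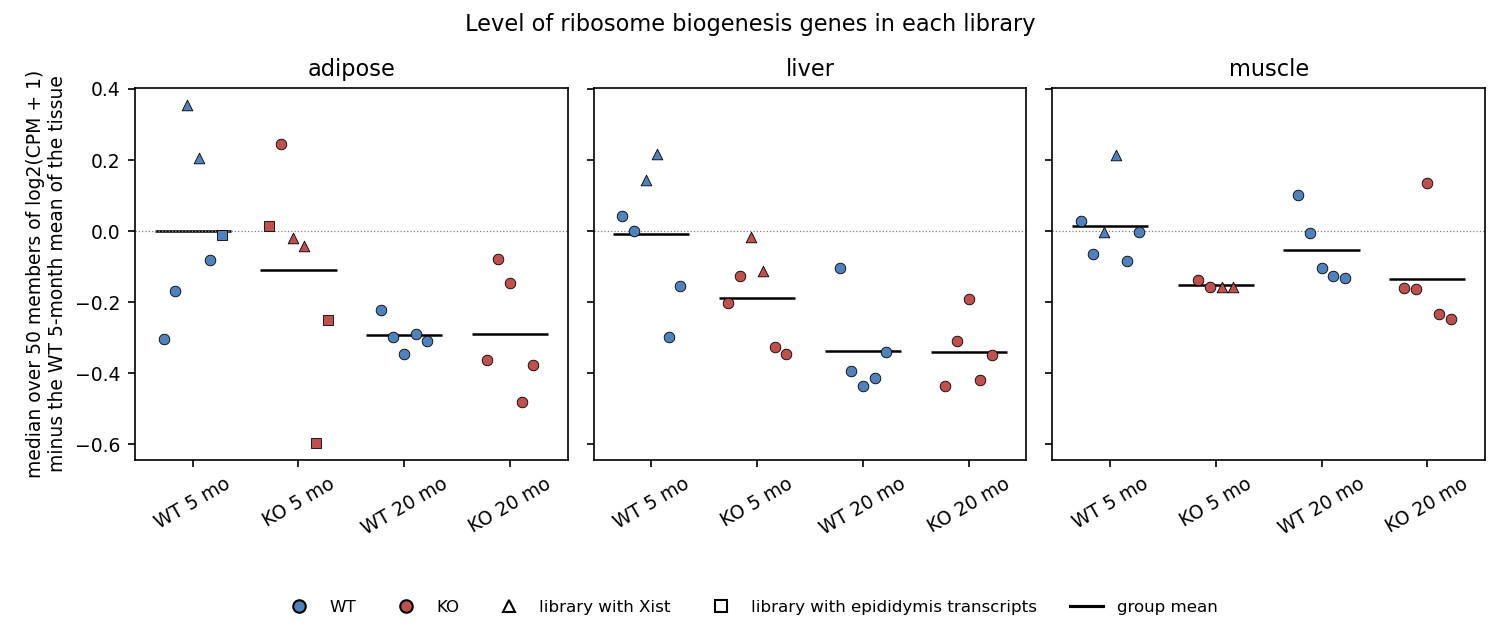
Median over the 50 members of each library's log2(CPM + 1) minus the WT 5-month mean of its tissue (y axis), by group (x axis, 3 panels for the tissues). Each mark is 1 library, triangles hold Xist, squares hold epididymis transcripts, and lines are group means. The median of liver libraries runs from -0.30 to 0.22 in young WT and from -0.43 to -0.10 in old WT mice.

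In young liver the lowest value was that of Gnl3 (nucleostemin, a GTP-binding nucleolar protein), at 20.8, 24.6 and 45.6 CPM in KO and 35.2, 39.4 and 46.9 CPM in WT (-0.57 ± 0.17, limma adjusted p = 0.334). The smallest p was that of Nop2, a methyltransferase of the large subunit's RNA, at 21.7, 25.2 and 32.1 CPM in KO and 26.6, 36.1 and 54.7 CPM in WT (-0.52 ± 0.14, adjusted p = 0.279). The groups overlapped for both. The nucleolar proteins followed with smaller differences: Npm1 (nucleophosmin, a histone and ribosome chaperone) at -0.33 ± 0.11 (adjusted p = 0.447) and Ncl (nucleolin, which binds ribosomal RNA and its genes) at -0.31 ± 0.12 (adjusted p = 0.577). All 7 RNA polymerase I members were below 0 in liver (median -0.24), among them the catalytic subunits Polr1a (-0.32) and Polr1b (-0.34), the initiation factor Rrn3 (-0.19), which links the polymerase to growth signals, and Ubtf (-0.10), which binds the promoter of ribosomal RNA genes. Of the small subunit members 16 of 19 were below 0 (median -0.15) and of the large subunit members 20 of 22 (median -0.24). The exceptions included Pno1 (0.05) and Gnl3l (0.12).

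In young adipose tissue the smallest p was that of Tsr1, a factor of late small subunit maturation, at 6.62, 14.5 and 19.3 CPM in KO and 15.3, 19.9 and 25.5 CPM in WT (-0.53 ± 0.17, limma adjusted p = 0.271). The groups overlapped. Role medians were -0.09 for RNA polymerase I, -0.12 for the small subunit and -0.08 for the large subunit. In young muscle the smallest p was that of Ltv1, an export factor of the small subunit, at 26.4, 23.5, 25.4 and 22.6 CPM in KO and 25.6, 30.9 and 33.1 CPM (lowest, median, highest) in WT (-0.27 ± 0.10, adjusted p = 1.0). Utp20 and Gnl2, at -0.29 and -0.26, were the 2 members whose KO and WT muscle libraries did not overlap, beside 0.212% of all genes lower in that way. Las1l, a part of the nuclease complex that cuts between the large subunit RNAs, was on the other side in muscle, with 63.6 to 89.2 CPM in KO and 45.5 to 77.9 CPM in WT (0.29 ± 0.21, adjusted p = 1.0).

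The size of the shift depended on the libraries compared. Among the libraries without Xist, the members' median KO difference was -0.01 in adipose tissue (27 of 50 below 0), -0.13 in liver (39) and -0.11 in muscle (35). Among the libraries with Xist, 2 in each group, it was -0.39 in adipose tissue (49 below 0), -0.29 in liver (42) and -0.29 in muscle (43). In liver the direction of this difference depended on the scaling. On reads per M the members' median relative to young WT livers was 0.248 and 0.160 in the KO livers with Xist (K5L5116 and K5L5118). It was 0.134 and 0.085 in the WT livers with Xist (W5L5041 and W5L5042). In WT mice the libraries with Xist lay above the others by a median of 0.417 (adipose tissue), 0.336 (liver) and 0.15 (muscle), and in KO mice this difference was 0.108, 0.176 and -0.058 in the same order (29 of 50 members below 0 in muscle). Without the 4 adipose libraries with epididymis transcripts the members' median KO difference in adipose tissue was 0.01, with 25 of 50 below 0. Without those and the libraries with Xist, 1 KO library (K5F4285) was left against 3 WT libraries. The members' median was then 0.46, beside -0.06 over all genes. A single library has no spread of its own, so only this difference is given. The part that sex or other tissue plays in the KO differences was not tested.

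At 20 months the members of KO and WT mice lay close together, and Myc itself overlapped between the genotypes in adipose tissue and muscle. No member was called by limma or by edgeR in any tissue, beside 0.0% of all adipose genes, 0.0232% of liver genes and 0.0302% of muscle genes. The members' medians were 0.01 (adipose tissue), 0.00 (liver) and -0.06 (muscle), with 23, 25 and 35 of 50 below 0, beside 48.2%, 48.1% and 54.4% of all genes. At an unadjusted p under 0.05, none passed in adipose tissue (1.37% of all genes higher, 0.875% lower), 2 were higher in liver (3.91%) and 6 were lower in muscle (8.1%). The smallest p values belonged to Ddx10, an RNA helicase, in adipose tissue (-0.18 ± 0.13, limma adjusted p = 1.0), Polr1e in liver and Pno1 in muscle.

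Polr1e, a subunit of the polymerase, had 4.16, 6.29, 6.91, 6.39 and 6.27 CPM in old KO livers and 4.49, 4.14, 4.30, 4.37 and 4.07 CPM in old WT livers (0.39 ± 0.16, limma adjusted p = 0.806). In 4 of 5 KO livers it was above every WT liver. Pno1, which guides the last cut of the small subunit RNA, had 51.9, 46.6, 42.3, 45.8 and 54.6 CPM in old KO muscle and 55.3, 77.6, 59.4, 61.999 and 51.1 CPM in old WT muscle (-0.33 ± 0.11, adjusted p = 0.295). Its groups overlapped through the highest KO and the lowest WT library.

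The second question was how the members changed with age. In WT liver 16 of 50 members fell between 5 and 20 months and none rose, while 4.36% of all genes tested were called lower and 2.83% higher. The members' median log2 fold change was -0.33, with 45 of 50 below 0, beside -0.01 and 51.4% over all genes. By role, the called members were Npm1 among the nucleolar proteins, 3 of 7 in RNA polymerase I (Polr1c, Polr1e, Rrn3), 7 of 19 in the small subunit route (Rrp12, Ddx21, Nob1, Rrp9, Bysl, Nop14, Utp18) and 5 of 22 in the large subunit route (Rrs1, Wdr74, Nop2, Ftsj3, Pes1). At an unadjusted p under 0.05, 30 members were lower, beside 14.6% of all genes. In bulk tissue fewer cells of a type and less RNA per cell cannot be told apart.

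**Figure D2:**
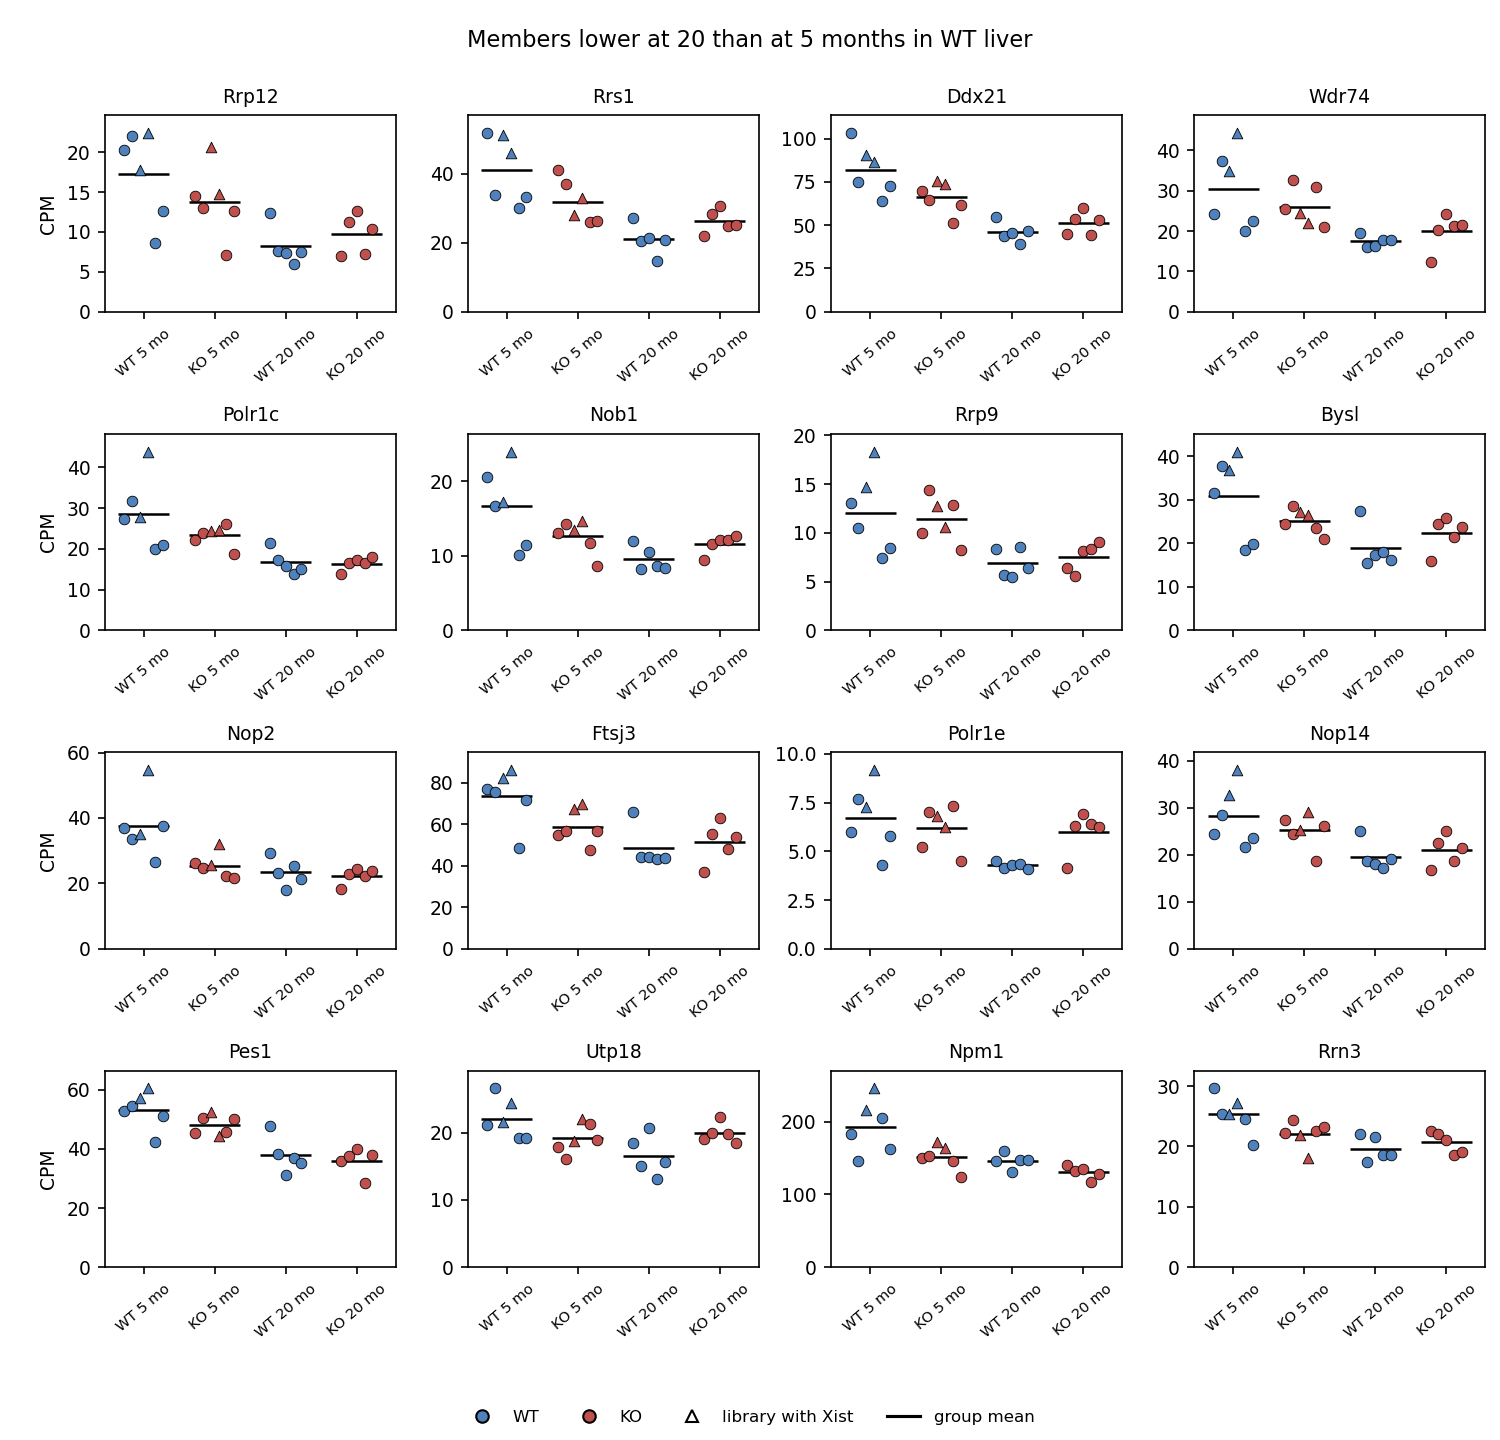
CPM of the 16 members that fell with age in WT liver (1 panel each, y axis from 0), in the 4 liver groups (x axis), with 1 mark per library and a line at the group mean. Ddx21, Rrs1 and Wdr74 are the panels in which the young and old WT livers do not overlap.

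Among RNA polymerase I members, Polr1c, a subunit shared with RNA polymerase III, fell from a mean of 28.6 to 16.7 CPM (-0.71 ± 0.16, limma adjusted p = 0.00853). Polr1e fell from 6.70 to 4.27 CPM (-0.52 ± 0.15, adjusted p = 0.0447) and Rrn3 from 25.4 to 19.6 CPM (-0.35 ± 0.10, adjusted p = 0.0425). The catalytic subunits did not pass the test, with Polr1a at -0.25 ± 0.17 (adjusted p = 0.37) and Polr1b at -0.27 ± 0.15 (adjusted p = 0.261), nor did Ubtf at -0.29 ± 0.10 (adjusted p = 0.0821). Of the nucleolar proteins, Npm1 fell from 193 to 146 CPM (-0.38 ± 0.11, adjusted p = 0.0458), and Ncl had 277 and 224 CPM (-0.30 ± 0.12, adjusted p = 0.124).

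In the small subunit route the largest falls were those of Rrp12, which takes part in export of the subunit, and Ddx21, an RNA helicase that acts on nascent ribosomal RNA. Rrp12 had 8.57, 19.0 and 22.4 CPM in young WT livers and 12.4, 7.56, 7.37, 6.04 and 7.54 CPM in old ones (-0.96 ± 0.25, limma adjusted p = 0.0217). Ddx21 had 63.7, 80.8 and 103 CPM in young and 54.6, 44.0, 45.4, 38.9 and 46.4 CPM in old WT livers (-0.81 ± 0.13, adjusted p = 0.000622). Every old library was below every young one for Ddx21, while for Rrp12 1 old library was above the lowest young one. Bysl, needed for processing of the small subunit RNA, fell from 30.9 to 18.9 CPM (-0.65 ± 0.19, adjusted p = 0.0421), and Nop14, a scaffold of the early small subunit particle, from 28.1 to 19.6 CPM (-0.49 ± 0.15, adjusted p = 0.046). Heatr1 (-0.22), another part of that particle, and the RNA acetyltransferase Nat10 (0.06) were not called.

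In the large subunit route Rrs1, which brings a ribonucleoprotein into the early large subunit, had 30.1, 39.9 and 51.8 CPM in young and 27.2, 20.6, 21.5, 14.8 and 20.9 CPM in old WT livers (-0.92 ± 0.17, limma adjusted p = 0.00214). These groups did not overlap. Nop2 fell from 37.4 to 23.4 CPM (-0.64 ± 0.15, adjusted p = 0.0128). Pes1 forms a complex with Bop1 and Wdr12 that is needed to process the large subunit RNA, and the 3 partners differed in their values. Pes1 had 42.2, 53.6 and 60.4 CPM in young and 47.6, 38.2, 31.3, 37.0 and 35.1 CPM in old WT livers and fell (-0.48 ± 0.11, adjusted p = 0.0119). Bop1 was at -0.38 ± 0.14 (adjusted p = 0.0879) and Wdr12 at -0.05 ± 0.14 (adjusted p = 0.842). Whether the partners differ from each other was not tested.

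Other large subunit members not called in old WT liver were Gnl3 (-0.53 ± 0.18, limma adjusted p = 0.0661), Mrto4 (-0.37), which holds the place of a stalk protein, and Las1l (-0.28). The members above 0 were Mdn1 (0.22), a giant ATPase that strips factors from the maturing large subunit, Utp20 (0.17), Nat10 (0.06), Gnl3l (0.05) and Pno1 (0.05). The called members not yet described fell by 0.71 (Wdr74), 0.70 (Nob1, the nuclease that makes the last cut of the small subunit RNA), 0.69 (Rrp9), 0.59 (Ftsj3, an RNA methyltransferase) and 0.39 (Utp18), with limma adjusted p of 0.0226 to 0.0439. Ddx21, Rrs1 and Wdr74 were the members whose young and old WT livers did not overlap, beside 2.79% of all genes lower in that way.

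How many members passed in WT liver depended on the libraries and the scaling. Of the 16 calls, 5 (Ddx21, Nop2, Pes1, Polr1c and Rrs1) held whichever of the 22 liver libraries was left out, and the count ranged from 5 (without W18L02, W18L05 or W5L5042, all WT) to 19 (without the young WT library W5L5277). Without the libraries with Xist 2 were called, Ddx21 (-0.75, limma adjusted p = 0.00635) and Rrs1 (-0.79, adjusted p = 0.0246), 19 were lower at an unadjusted p under 0.05, and the members' median was -0.21. The deposited CPM summed to 1.36 to 1.64 M in young and 1.18 to 1.38 M in old WT livers. Rescaled to 1 M reads per library, 3 members were called lower (Ddx21, Polr1c and Rrs1) and the median of all genes moved from -0.01 to 0.17. Relative to the median of all genes the members' median was -0.31 on either scale. With edgeR 12 were called, without Npm1, Rrn3, Nop14 and Utp18, and without the filter on low values 9. Npm1, the 1 nucleolar protein called, held in 6 of the 22 fits that left out a library and under none of these 4 other settings. The shares of all genes that passed under the other settings are not given here, so these counts cannot be read as particular to the members.

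Markers of other cells also moved between these groups. Summed over 6 macrophage genes, WT livers had 159, 304 and 360 CPM at 5 months and 138, 169 and 232 CPM at 20 months. Summed over 7 hepatocyte genes they had 116090, 141990 and 223425 CPM at 5 months and 112623, 134263 and 135987 CPM at 20 months, and 6 genes of dividing cells had 3.32 to 7.24 CPM and 3.64 to 8.21 CPM. The part of these cells in the members' fall was not tested.

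In KO liver the same age comparison gave 1 called member, Pes1, at 44.3, 47.9 and 52.5 CPM in young and 35.9, 37.5, 40.1, 28.6 and 37.9 CPM in old mice (-0.41 ± 0.11, limma adjusted p = 0.0449). The groups did not overlap, and 1.31% of all genes were called lower and 1.68% higher. The Pes1 call was lost with edgeR, without the filter on low values, after rescaling (Utp20, higher, was then the 1 called member) and without the libraries with Xist. The members' median was -0.16, with 42 of 50 below 0, beside 53.6% of all genes. Rescaling turned it to 0.029, and relative to the median of all genes it was -0.14 on the deposited scale and -0.13 after rescaling. The call held in 10 of 22 fits that left out 1 liver library. Myc in KO liver had a median of 2.65 CPM at 5 and 2.16 CPM at 20 months. Utp20 (0.50 ± 0.15, adjusted p = 0.0676) and Mdn1 (0.50 ± 0.20, adjusted p = 0.177) were the highest members in KO liver, and both were called higher without the libraries with Xist.

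Set beside each other, Rrs1 changed by -0.92 in WT and had -0.26 in KO liver, Ddx21 -0.81 and -0.36, Rrp12 -0.96 and -0.44, Nop2 -0.64 and -0.18, Polr1e -0.52 and -0.04, and Pes1 -0.48 and -0.41. The WT values and the 5-month KO values rest on the same young WT libraries, so the lower young KO level and the fall with age in WT are not independent. The test of the difference itself, the change of the KO effect between the ages, called no member by limma or edgeR and 0.0% of all genes. At an unadjusted p under 0.05, 7 members were higher (Rrs1, Nob1, Polr1e, Nop2, Ddx21, Utp18 and Ubtf), beside 2.17% of all genes. The strongest was Rrs1, at 0.66 ± 0.23 (adjusted p = 0.991). The age changes in WT and KO liver are therefore not shown to differ for any member.

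**Figure D3:**
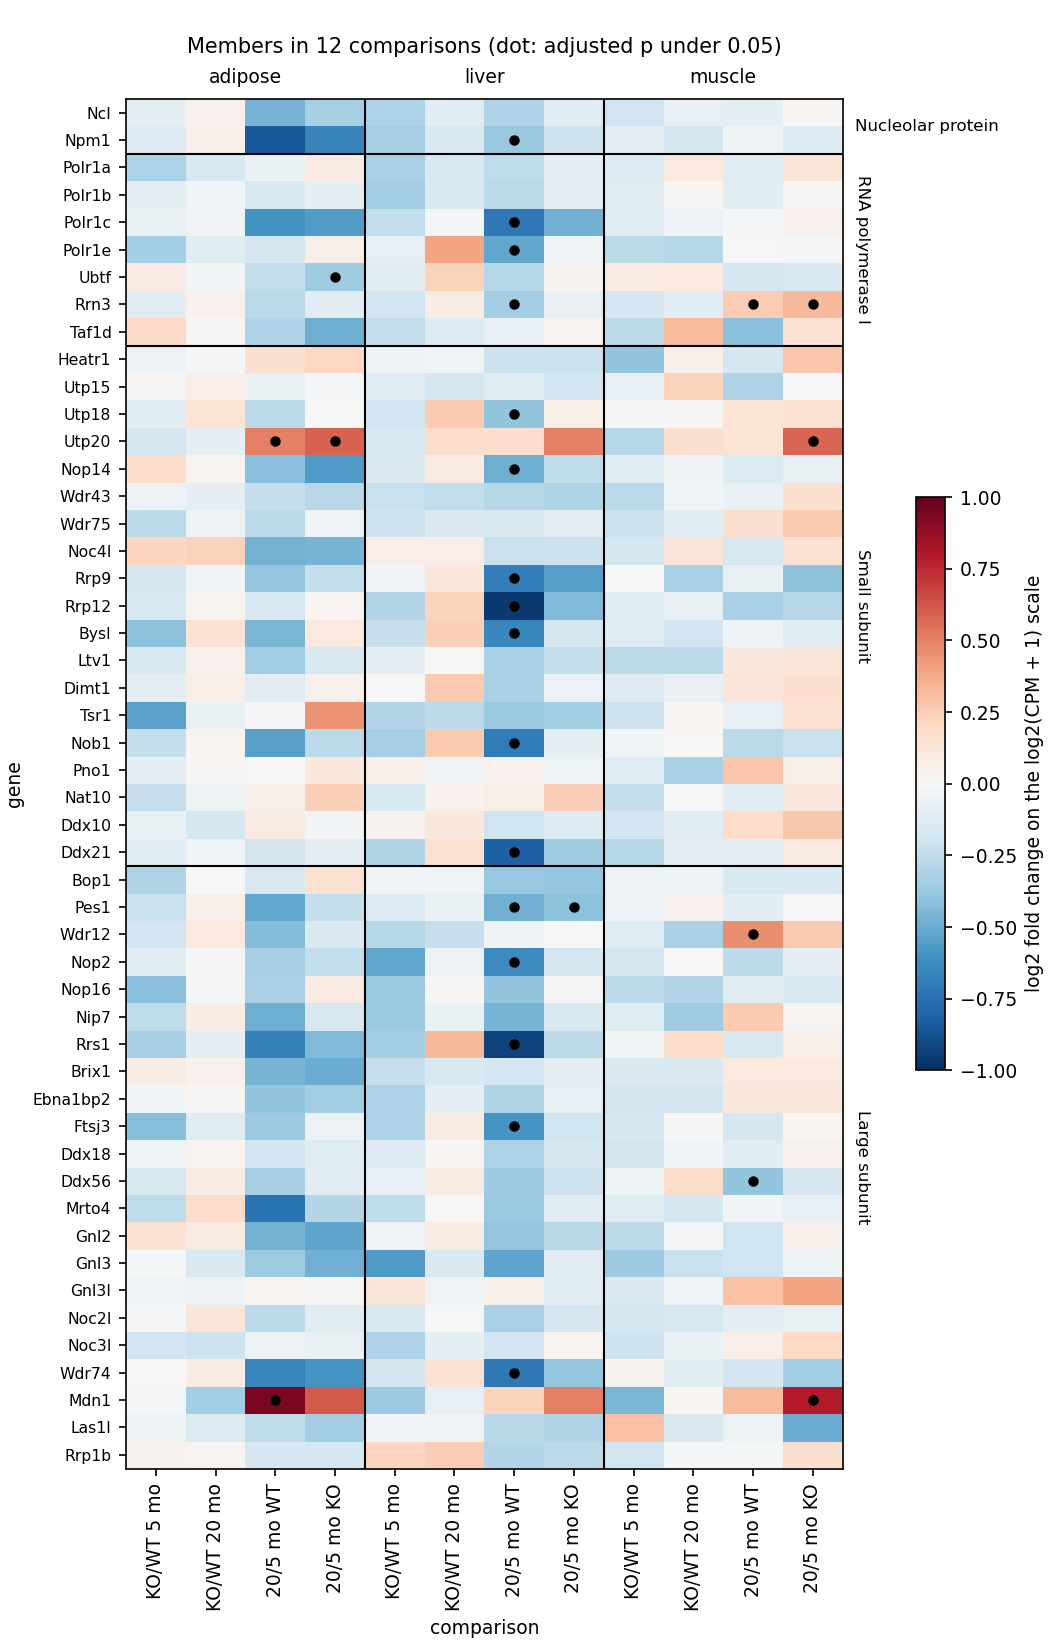
Log2 fold change on the log2(CPM + 1) scale (colour, limited to -1 to 1) of the 50 members (y axis, ordered by role) in the 12 comparisons of genotype and age (x axis). A dot marks a limma adjusted p under 0.05. The 16 dots of WT liver ageing are all on the lower side, and the 6 columns of KO against WT hold no dot.

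In adipose tissue 2 members rose with age in WT mice, beside 7.41% of all genes called higher, and none fell, beside 3.36% called lower. Utp20, a large scaffold protein of the small subunit particle, had 11.9, 16.3 and 19.0 CPM in young and 22.3, 23.7, 22.8, 23.004 and 21.6 CPM in old WT mice (0.51 ± 0.12, limma adjusted p = 0.0128). Mdn1 had 7.08, 10.5 and 23.4 CPM in young and 22.4, 32.4, 23.5, 20.8 and 20.2 CPM in old WT mice (0.94 ± 0.27, adjusted p = 0.0331). The Utp20 call held in each of 22 fits without 1 adipose library and the Mdn1 call in 15. The groups did not overlap for Utp20, and overlapped for Mdn1 through 1 young library, W5F5299, which held epididymis transcripts. Mdn1 was not called after rescaling, with edgeR, without the filter on low values or without the libraries with Xist.

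Most other members lay lower in old WT adipose tissue, 43 of 50 with a median of -0.26 beside 49.2% of all genes below 0. At an unadjusted p under 0.05, 19 were lower, beside 13.1% of all genes. In 9 members every old WT library was below every young one, beside 4.65% of all genes, and none of them was called: Rrs1 (-0.67 ± 0.25, limma adjusted p = 0.0835), Polr1c (-0.60), Noc4l (-0.47), Bysl (-0.46), Brix1 (-0.46), Rrp9 (-0.39), Ltv1 (-0.35), Ddx56 (-0.33) and Ubtf (-0.25). Npm1 had 90.5, 133 and 435 CPM in young and 87.3 to 107 CPM in old WT mice (-0.85 ± 0.34, adjusted p = 0.0986), and Mrto4 had 10.2 to 22.3 and 6.87 to 10.3 CPM (-0.73 ± 0.26, adjusted p = 0.0662). Without the 4 libraries with epididymis transcripts 14 members were called lower, Npm1, Mrto4, Pes1, Polr1c and Rrs1 among them, and edgeR called 6 lower. Without the young KO library K5F5218 alone, which enters the shared estimate of the spread, 11 were called (2 higher, 9 lower). The shares of all genes called under these other settings are not given here, so these counts cannot be read as particular to the members.

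In KO adipose tissue Utp20 rose from 11.9, 14.1 and 15.9 CPM to 20.2, 19.6, 24.6, 21.3 and 20.9 CPM (0.59 ± 0.12, limma adjusted p = 0.00488), beside 10.5% of all genes called higher. Ubtf fell from 72.1, 97.1 and 109 CPM to 71.4, 76.1, 76.8, 70.1 and 69.0 CPM (-0.35 ± 0.11, adjusted p = 0.0346), beside 3.75% called lower. Leaving out 1 library kept the Utp20 call in 22 of 22 fits and the Ubtf call in 16. The Utp20 groups did not overlap and the Ubtf groups overlapped through the lowest young library, K5F5218, an epididymis library without which 12 members in all were called. Mdn1 had 5.54, 11.4 and 20.6 CPM in young and 21.2, 13.0, 21.8, 17.3 and 19.8 CPM in old KO mice (0.61 ± 0.27, adjusted p = 0.125). The members' median was -0.12, with 36 of 50 below 0 beside 44.4% of all genes. Without the 4 libraries with epididymis transcripts 2 were called higher and 11 lower, and the share of all genes under that setting is not given here. Without those and the libraries with Xist, 1 young KO library was left. The members' median was then -0.54, beside 0.10 over all genes, and Utp20 was not called. The test of the difference between the genotypes' age changes called no member by limma or edgeR (0.0% of all genes), with 1 higher at an unadjusted p under 0.05 (1.69% of all genes), Bysl (0.55 ± 0.25, adjusted p = 0.998).

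Adipose composition differed between the same groups, also in the hepatocyte genes given above. Summed over 7 adipocyte genes, WT libraries had 18325, 27535 and 34921 CPM at 5 months and 10771, 15511 and 17937 CPM at 20 months, and these did not overlap. KO libraries had 9672, 15773 and 36855 CPM at 5 months and 10936, 13483 and 20569 CPM at 20 months. Macrophage genes summed to 956, 1306 and 1588 CPM in young and 994, 1520 and 2207 CPM in old WT tissue, and to 786, 1841 and 2529 CPM and 1454, 2322 and 3314 CPM in young and old KO tissue. Their part in the members' values was not tested.

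**Figure D4:**
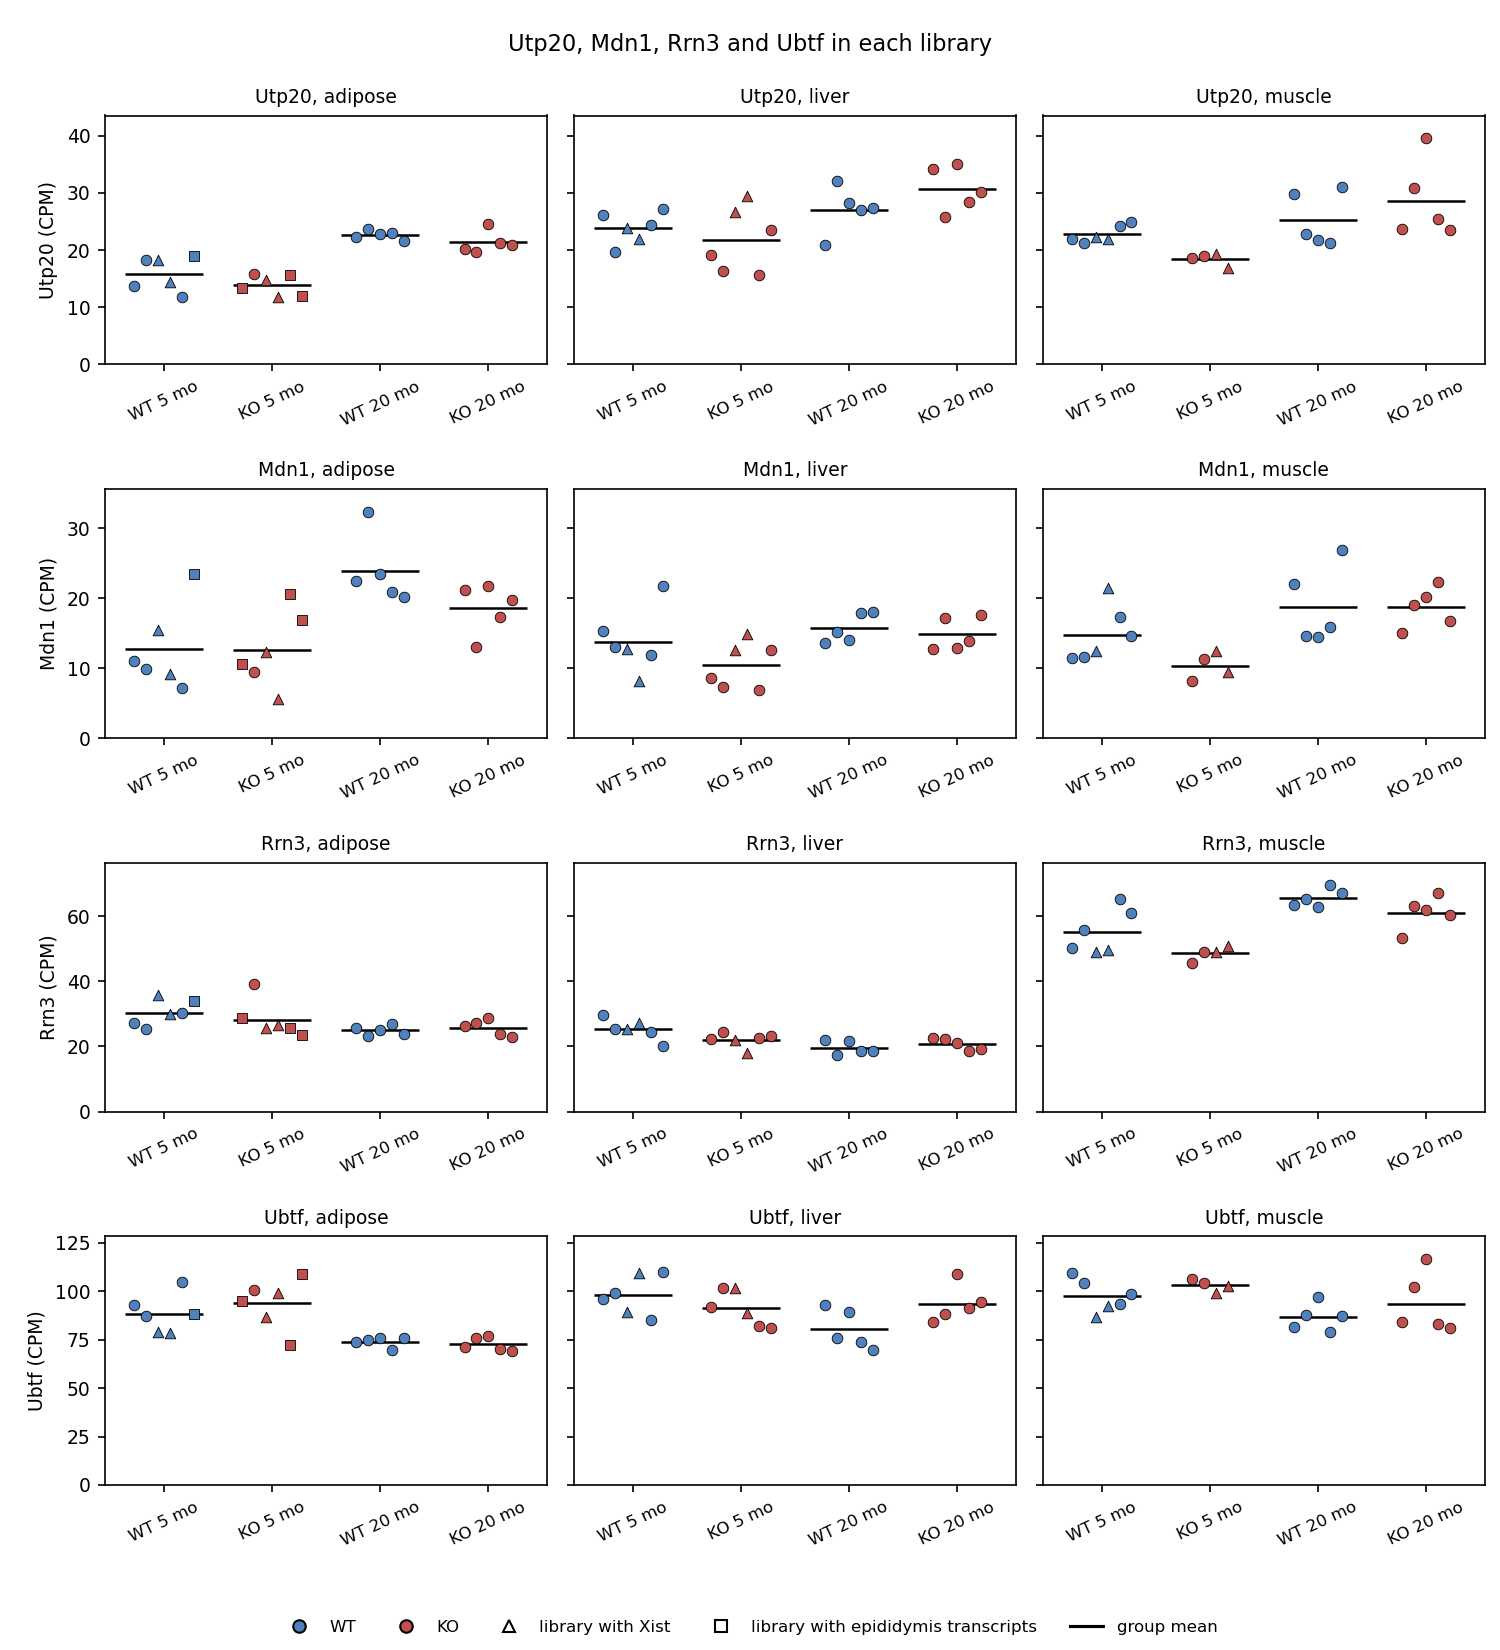
CPM (y axis from 0) of Utp20, Mdn1, Rrn3 and Ubtf (rows) in the 12 groups (x axis, by tissue), with 1 mark per library and a line at the group mean. Old adipose libraries lie above the young ones for Utp20 in both genotypes, and old KO muscle lies above young KO muscle for Utp20, Mdn1 and Rrn3.

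In muscle the members moved little and in both directions. In WT muscle 2 rose and 1 fell, beside 10.9% and 7.68% of all genes called higher and lower, and the members' median was -0.09 with 35 of 50 below 0, beside 46.0% of all genes. Wdr12 had 17.5, 21.6 and 24.2 CPM in young and 24.6, 35.5, 27.3, 30.3 and 28.9 CPM in old WT muscle (0.46 ± 0.12, limma adjusted p = 0.017). Rrn3 had 49.1, 53.0 and 65.3 CPM in young and 63.3, 65.3, 62.96, 69.5 and 67.1 CPM in old WT muscle (0.25 ± 0.08, adjusted p = 0.0412). Ddx56, a helicase of the large subunit route, had 42.3, 53.4 and 69.7 CPM in young and 43.6, 40.9, 42.5, 38.7 and 36.8 CPM in old WT muscle (-0.40 ± 0.13, adjusted p = 0.0369). The groups did not overlap for Wdr12 and overlapped for the other two. Rrn3 was not called with edgeR and Ddx56 not without the filter on low values. Without the libraries with Xist Wdr12 alone was called, and with 1 library left out its call held in 19 of 20 fits, that of Rrn3 in 11 and that of Ddx56 in 12. Macrophage genes summed to 78.7, 156 and 282 CPM in young and 40.8, 79.1 and 125 CPM in old WT muscle, and their part was not tested.

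In KO muscle 3 members rose with age, beside 3.6% of all genes called higher, and none fell, beside 1.96%. The members' median was 0.05, with 19 of 50 below 0 beside 52.5% of all genes. Mdn1 had 8.17, 11.3, 12.4 and 9.50 CPM in young and 15.1, 19.0, 20.2, 22.3 and 16.8 CPM in old KO muscle (0.80 ± 0.20, limma adjusted p = 0.026). Utp20 had 18.7, 18.9, 19.3 and 16.9 CPM in young and 23.7, 30.9, 39.6, 25.4 and 23.5 CPM in old KO muscle (0.58 ± 0.14, adjusted p = 0.0244). Rrn3 had 45.7, 49.1, 49.0 and 50.8 CPM in young and 53.3, 63.2, 61.8, 67.0 and 60.3 CPM in old KO muscle (0.32 ± 0.09, adjusted p = 0.0491). In all 3 genes every old library was above every young one, as was Ddx10, beside 8.89% of all genes. Rrn3 was not called without the filter on low values. None of the 3 was called without the libraries with Xist, which leaves 2 young KO libraries. With 1 library left out, the calls of Mdn1 and Utp20 held in 16 of 20 fits each and that of Rrn3 in 6.

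The same genes in WT muscle had 0.32 ± 0.18 for Mdn1 (limma adjusted p = 0.214) and 0.13 ± 0.13 for Utp20 (adjusted p = 0.485). The difference between the genotypes' age changes was not called for any member by limma or edgeR (0.0% of all genes). At an unadjusted p under 0.05, 2 members were higher (1.16% of all genes), and the smallest p was that of Utp20 (0.45 ± 0.19, adjusted p = 0.999). Pes1 in muscle was at -0.11 ± 0.11 in WT and -0.01 ± 0.12 in KO, and Bop1 at -0.15 ± 0.09 and -0.15 ± 0.10. Gnl3l, a relative of Gnl3, was at 0.29 in WT (limma adjusted p = 0.0635) and 0.40 in KO (adjusted p = 0.0565), and after rescaling it was called higher in both.

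Across all comparisons of age, 21 members were called at least 1 time and 29 were not, and no member was called in a comparison of genotypes. The share of all genes called at least 1 time is not given here, so the 21 cannot be read as particular to the members. The 29 were Ncl among the nucleolar proteins, Polr1a, Polr1b and Taf1d of RNA polymerase I, 11 of the small subunit route (Heatr1, Utp15, Wdr43, Wdr75, Noc4l, Ltv1, Dimt1, Tsr1, Pno1, Nat10 and Ddx10) and 14 of the large subunit route (Bop1, Nop16, Nip7, Brix1, Ebna1bp2, Ddx18, Mrto4, Gnl2, Gnl3, Gnl3l, Noc2l, Noc3l, Las1l and Rrp1b). Utp20 was called higher in WT and KO adipose tissue and in KO muscle, and its group medians in liver were 24.2 and 27.3 CPM in WT and 21.4 and 30.2 CPM in KO at 5 and 20 months. Rrn3 was called lower in old WT liver and higher in old muscle of both genotypes. With 1 library left out these calls held in 10 of 22 fits in WT liver, 11 of 20 in WT muscle and 6 of 20 in KO muscle. No Rrn3 call held without the libraries with Xist. Whether these age changes differ between tissues was not tested.

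A further 79 ribosome biogenesis genes outside the set were counted by role. In WT liver 17 of these fell with age and none rose (median -0.29, 69 of 79 below 0): 3 of 11 RNA polymerase I genes, 8 of 38 of the small subunit and 6 of 30 of the large subunit. Of all genes 4.36% were called lower in that comparison. In KO liver 1 rose and 1 fell (median -0.12), beside 1.68% and 1.31% of all genes. In adipose tissue 3 fell in WT (median -0.31), beside 3.36%, and 2 rose and 1 fell in KO (median -0.18), beside 10.5% and 3.75%. In muscle 3 rose and 5 fell in WT (median -0.03), beside 10.9% and 7.68%, and 1 rose in KO, beside 3.6%. Between KO and WT at 5 months none was called, with medians of -0.11 (adipose tissue), -0.12 (liver) and -0.07 (muscle), and at 20 months none was called.

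The last comparison was between tissues, in young WT mice. On the deposited scale 24 members were lower and 3 higher in adipose tissue than in liver (34.1% and 35.7% of all genes), 30 lower and 2 higher in adipose tissue than in muscle (30.2% and 38.8%), and 19 lower and 9 higher in liver than in muscle (36.7% and 36.4%). Directions that involve adipose tissue depended on the scaling. Rescaled to 1 M reads per library, no member was lower and 39 were higher in adipose tissue than in liver, and 5 were lower and 23 higher than in muscle, while 26 were lower and 6 higher in liver than in muscle. Without the libraries with Xist the counts were 26 lower and none higher (adipose tissue against liver), 30 and 2 (adipose tissue against muscle) and 17 and 9 (liver against muscle). The shares of all genes called after rescaling or without these libraries are not given here. The median of all genes moved with the scale, from 0.03 to 1.02 for adipose tissue minus liver, from 0.15 to 0.90 for adipose tissue minus muscle and from -0.01 to -0.21 for liver minus muscle. Relative to the median of all genes the members lay lower in adipose tissue on both scales, by -0.42 and -0.31 against liver and by -0.65 and -0.57 against muscle.

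**Figure D5:**
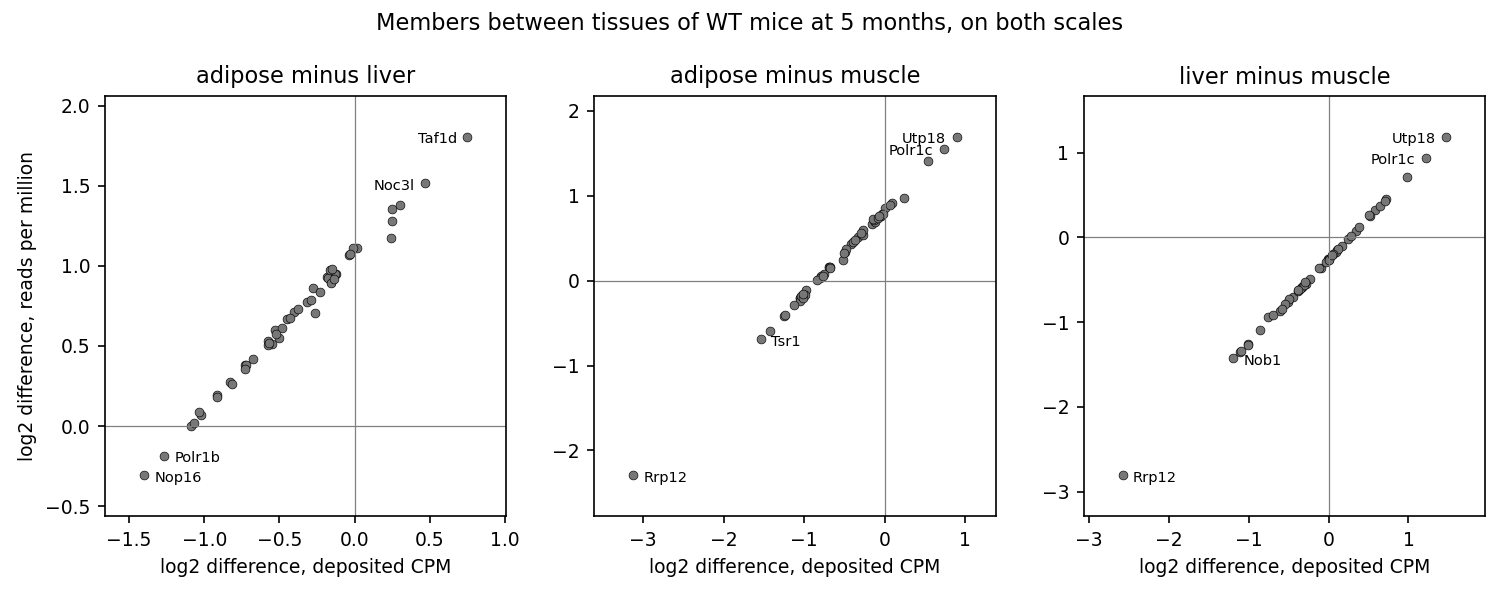
Log2 difference of the 50 members between tissues in young WT mice, on the deposited CPM (x axis) and on reads per M (y axis), 1 point per member and 1 panel per pair of tissues, with the lowest and highest members named. The members' median moves from -0.39 to 0.71 for adipose tissue minus liver, from -0.50 to 0.33 for adipose tissue minus muscle and from -0.11 to -0.35 for liver minus muscle.

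Some members were called the same way on both scales. Rrp12 had a mean of 103 CPM in muscle, 17.3 CPM in liver and 11.2 CPM in adipose tissue (liver minus muscle -2.57 ± 0.20, limma adjusted p = 6.09e-10, adipose tissue minus muscle -3.12 ± 0.20, adjusted p = 6.21e-11). On reads per M these differences were -2.81 and -2.29. Utp18, an early small subunit factor, went the other way, with 22.02 CPM in liver, 14.7 CPM in adipose tissue and 7.37 CPM in muscle (liver minus muscle 1.47, and 1.19 on reads per M). Liver was above muscle on both scales for 6 members, Bop1, Ftsj3, Nop16, Polr1c, Utp18 and Wdr74, and below it for 19, Nob1 (-1.19 and -1.43) and Gnl3l (-1.11 and -1.35) among them.

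Adipose tissue was above liver on both scales for Taf1d, a subunit of the promoter selectivity factor of RNA polymerase I (0.75 and 1.81), Noc3l (0.47 and 1.51) and Wdr75 (0.30 and 1.38). None of these 3 was called without the libraries with Xist, and Wdr75 was not called with edgeR. It was above muscle for Polr1c and Utp18 and below muscle for Bysl, Nob1, Pno1, Rrp12 and Tsr1. For the other members the direction between adipose tissue and liver was called on 1 scale only, on neither, or in opposite ways (13 members). Nop16, at -1.40 on CPM, and Polr1b, at -1.27, had -0.31 and -0.18 on reads per M.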

How the data were processed

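The deposited table holds 64 library columns called CPM, made with CLC software per the file headers. The authors' columns sum to 0.529 to 1.64 M rather than to 1 M, so the deposited values are treated as a read signal with a scale factor per library. Whole reads were recovered from all values (100%, tolerance 0.01 reads), 15.4 to 28.5 M per library. The build is GRCm38.p6 (mm10) per the submitters' processing notes. The aligner and whether counting was stranded are not given in the sources used here. Libraries were made with a directional poly-T kit per the labels' protocols.

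IDs were matched to symbols in a RefSeq table of GRCm38.p6 (35336 of 36332), which also gave promoters. Testing used limma 3.58.1 under R 4.3.3 on log2(CPM + 1), for genes that exceeded 1 CPM in a number of libraries no smaller than the tissue's smallest group, with 1 mean per group and tissue, trended moderation and Benjamini-Hochberg adjustment over all genes. Tissues were compared over 18 WT libraries. All 50 members passed the filter. A gene is called at an adjusted p under 0.05. Fold changes on this scale understate changes of low genes. The code was tested on simulated data.

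Alternatives were a pseudocount of 0.1, no filter, reads per M, edgeR 4.0.16 on recovered reads, no libraries with Xist, each library left out, and mouse number as a block. Leaving out 4 or 8 adipose libraries was chosen after seeing the data. Shares of all genes set beside a count belong to the main fit, and none is given for the alternatives. The labels code old mice with 18 and give 20 months as their age, which is used. The members, lists and alternatives were chosen with earlier results of these data known. Named are 20 members fixed by role, in each comparison the 3 largest called changes each way or the smallest p, and extremes of a range. Other members are named where a count is itemised or a pattern is shown, after their values were seen.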

Additional observations from a re-analysis of the deposited data

Results flagged for a closer look

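In groups of 4 to 6 libraries, 52 groups of values were checked for a library far from the rest, and 7 had one, where chance gives about 1 in 20 groups. Mdn1 had 32.38 CPM in the old WT adipose library W18F22, above the 20.2 to 23.5 CPM of the other old WT libraries. Polr1e had 4.159 CPM in the old KO liver K18L06, below the 6.27 to 6.91 CPM of the others. Rrp12 had 12.42 CPM in the old WT liver W18L01, above the 6.04 to 7.56 CPM of the others, and the members' median in the same library, -0.1037 relative to young WT livers, also stood above the other old WT livers. The members' median was 0.2152 in the young WT muscle library W5S5042, -0.137 in the young KO muscle library K5S4284 and 0.1344 in the old KO muscle library K18S62, each above the rest of its group. The cause was not tested.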

How the results depend on the processing

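Of the counts of called members, those of KO against WT at 20 months, of the changes of the KO effect in liver and muscle, and of KO against WT at 5 months in muscle were 0 under each alternative run. WT liver ageing (16) gave 9 without the filter, 3 rescaled to 1 M reads and 2 without Xist libraries, and 5 to 19 with 1 library left out. KO liver ageing (1) gave 0 without the filter, 0 with edgeR, 1 rescaled (Utp20, higher, in place of Pes1) and 2 without Xist libraries (both higher), and 0 to 2 with 1 left out. WT adipose ageing (2) gave 1 without the filter, 1 rescaled, 1 without Xist libraries, 7 with edgeR, 16 without the 4 epididymis libraries and 7 without the 8 adipose libraries with epididymis transcripts or Xist, and 1 to 11 with 1 left out (11 without K5F5218). KO adipose ageing (2) gave 4 rescaled, 8 with edgeR and 13 without the 4 epididymis libraries, and 1 to 12 with 1 left out (12 without K5F5218). Without the 8, young KO adipose tissue is left with 1 library, so its comparisons are given as medians of the members only. These were 0.46 for KO against WT, -0.54 for KO ageing and -0.44 for the change of the KO effect. WT muscle ageing (3) gave 5 rescaled and 1 without Xist libraries, and 0 (without W18S42) to 6 (without W5S5277) with 1 left out. KO muscle ageing (3) gave 5 rescaled and 0 without Xist libraries, and 0 to 5 with 1 left out. KO against WT in young liver (0) gave 0 to 1 with 1 left out.

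Tissue counts stayed within 1.5 times: 22 to 29 for adipose tissue and liver, 30 to 33 for adipose tissue and muscle, and 24 to 28 for liver and muscle with 1 library left out. With mouse number as a replicate block they were 28, 33 and 29 beside 27, 32 and 28. Rescaled to 1 M reads the counts were 39, 28 and 32, but the members called changed. Of these, 3, 7 and 25 were called the same way in the main fit. Same-numbered WT libraries of 2 tissues deviated together with r of -0.0744 to 0.315 (11 of 14 pairs over 0.1, with all 5 of liver and muscle among these), and Xist was in the same mouse numbers in each tissue. Rescaling reversed the members' median for adipose tissue minus liver to 0.71, for adipose tissue minus muscle to 0.33 and for KO liver ageing to 0.029, and moved Mrto4 in adipose tissue minus liver to 0.000492. The median of KO muscle ageing ran from -0.016 (without K18S62) to 0.077 with 1 library left out. The causes were not tested. Depth was 15.4 to 28.5 M reads, and the lowest member had 26 reads in a library. How far counting error at that depth limits single members was not tested.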
